A study of Mus musculus with 12 samples.

Results

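Bile acid synthesis and uptake in hepatocytes was followed through 10 genes: Cyp7a1, Cyp8b1, Cyp27a1, Cyp7b1, Baat, Slc10a1, Slco1b2, Abcb11, Nr1h4 and Nr0b2. They were picked by symbol from a table of 54839 features, of which 17121 had enough counts to be tested, and all 10 were among those tested. The RNA-seq holds 12 libraries in 4 groups of 3, made from sorted liver cells of male p16-Tom mice. Tom- oil and Tom+ oil came from mice given corn oil, and Tom- CCl4 and Tom+ CCl4 from mice given CCl4, a solvent toxic to hepatocytes, at 1 mL/kg over 4 weeks. Mice of every group carried a tamoxifen-dependent Cre under p16 control and a tdTomato reporter, and all received tamoxifen at 80 mg/kg. Tom+ thus marks cells in which p16 was active when tamoxifen was given, whatever p16 does afterwards. The mice behind each library are not named, so the p-values measure the spread between these libraries, which may be technical.

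Bile acids are made in hepatocytes from cholesterol. The classic route starts with Cyp7a1, the rate-limiting 7-alpha-hydroxylase, and Cyp8b1 then adds the 12-alpha-hydroxyl group that makes cholic acid. The alternative route starts with Cyp27a1, the mitochondrial sterol 27-hydroxylase, and continues with Cyp7b1, an oxysterol 7-alpha-hydroxylase. Baat joins bile acids to taurine or glycine, Slc10a1 (NTCP) and Slco1b2 (OATP1B2) take them up from portal blood, and Abcb11 (BSEP) pumps them into the canaliculus. Nr1h4 encodes the bile acid receptor FXR, which induces Nr0b2, the corepressor SHP that represses Cyp7a1 and Cyp8b1.

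In mm10 coordinates, Cyp7a1 lies at chr4:6265612-6275633, Cyp8b1 at chr9:121914356-121916305, Cyp27a1 at chr1:74713574-74737892 and Cyp7b1 at chr3:18071950-18243338. Baat lies at chr4:49489422-49506557, Slc10a1 at chr12:80953183-80968705, Slco1b2 at chr6:141629518-141686646 and Abcb11 at chr2:69238282-69342616. The receptor gene Nr1h4 lies at chr10:89454234-89533585 and Nr0b2 at chr4:133553376-133556536. All 10 are annotated as protein-coding, and the counts are given as 1 value for each gene rather than for single exons. The length deposited beside the counts can be shorter than the span of the gene, as with 2166 bases for Cyp7b1. For Cyp8b1 the length of 1950 bases equals the span.

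RefSeq promoters (GRCm38.p6, 250 bases before to 50 after a start site) were at hand for 7 of the 10 genes. The 150 bases before the start site of Cyp8b1, Slco1b2, Abcb11 and Nr0b2 are printed because their start site is that of the deposited gene and each holds letters known as a binding motif of a bile acid or liver regulator, which the capitals mark. Cyp8b1 fell in CCl4, Slco1b2 was above Tom- in CCl4 and below it in oil in every Tom+ library pair, and Abcb11 and Nr0b2 are the classic FXR targets.
Cyp8b1 (chr9:121916306-121916455, minus strand): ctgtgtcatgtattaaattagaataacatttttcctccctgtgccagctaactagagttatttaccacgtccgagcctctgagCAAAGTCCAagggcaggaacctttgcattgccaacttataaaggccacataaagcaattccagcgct
Slco1b2 (chr6:141629368-141629517, plus strand): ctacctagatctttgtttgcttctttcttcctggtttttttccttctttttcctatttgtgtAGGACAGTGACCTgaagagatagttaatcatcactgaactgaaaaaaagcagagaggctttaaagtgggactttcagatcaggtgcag
Abcb11 (chr2:69342617-69342766, minus strand): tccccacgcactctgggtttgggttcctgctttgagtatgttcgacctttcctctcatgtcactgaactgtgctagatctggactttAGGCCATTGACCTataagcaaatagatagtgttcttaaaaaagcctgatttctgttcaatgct
Nr0b2 (chr4:133553226-133553375, plus strand): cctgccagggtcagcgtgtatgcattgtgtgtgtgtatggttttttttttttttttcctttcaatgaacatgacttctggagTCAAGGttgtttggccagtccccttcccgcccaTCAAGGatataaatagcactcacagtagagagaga

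Both transporter promoters hold the inverted repeat AGGNCANTGNCCT, of the kind bound by FXR with RXR, at -88 to -76 in Slco1b2 and -63 to -51 in Abcb11. This repeat was found in 29 of 32851 RefSeq promoters (0.0883%), searched on both strands. The HNF4A motif CAAAGTCCA stood at -67 to -59 of Cyp8b1 and in 0.475% of all promoters. The core letters TCAAGG of the NR5A2 (LRH-1) motif stood at -68 to -63 and at -35 to -30 of Nr0b2, and occur in 14.4% of all promoters. The single nuclear receptor site AGGTCA, in 16.3% of all promoters, overlaps the right end of both inverted repeats on the other strand. The motifs were chosen after these sequences had been seen, and a match describes letters and not a bound site.

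The reporter feature was at 1316 to 1369 CPM (counts scaled to library size by TMM) in Tom+ CCl4 and at 120 to 263 CPM in Tom- CCl4. In oil it went against the label of 2 libraries: Tom- oil replicate 1 stood at 1794 CPM and Tom+ oil replicate 2 at 135 CPM. Their same-numbered partners were close to them, Tom+ oil replicate 1 at 1546 CPM and Tom- oil replicate 2 at 157 CPM. In oil only the pair numbered 3 thus differed in reporter as labelled, at 143 CPM in Tom- and 1225 CPM in Tom+. Pair counts in oil, and fits with the pairs as a block, use all 3 pairs. The labels were kept, and the main results that rest on oil libraries are also given without the 2 libraries whose reporter went against their label. Fits with a block were not run without them. Total counts ranged from 37568584 to 75331424 a library, where 3 counts equal 0.0369 to 0.0829 CPM, and the lowest level of any of the 10 genes was 17.9 CPM. The 8 hepatocyte markers summed to between 90945 and 137795 CPM, against at most 277 CPM for 7 endothelial, 114 for 8 macrophage, 93.7 for 8 stellate, 73.2 for 7 cholangiocyte and 4.46 for 6 lymphocyte markers.

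Per length, in TPM (counts divided by transcript length and scaled to the library), Cyp27a1 and Slco1b2 were the highest of the 10 genes in every group and Cyp7a1 or Cyp8b1 the lowest. In Tom- oil the mean level ran from 617 ± 76.6 TPM (SD, n = 3) for Cyp27a1 and 617 ± 71.8 TPM for Slco1b2 down to 25.1 ± 16.5 TPM for Cyp7a1. Between these ends, Slc10a1 (415 TPM), Cyp7b1 (391 TPM) and Abcb11 (381 TPM) overlapped with their neighbours, and Baat (300 TPM), Cyp8b1 (246 TPM), Nr1h4 (97.3 TPM) and Nr0b2 (85.3 TPM) followed without overlap. Tom+ oil had the same 2 genes first and Cyp7a1 last (28.7 ± 11.4 TPM), and in Tom- CCl4 Cyp8b1 (51.1 ± 14.3 TPM) and Cyp7a1 (33.1 ± 4.03 TPM) were the lowest. In Tom+ CCl4, Cyp7a1 stood seventh at 92.9 ± 4.92 TPM, Cyp7b1 eighth at 78.1 ± 24.2 TPM and Cyp8b1 last at 40.5 ± 7.77 TPM. Among the 5 lowest genes of that group no neighbours in this order were separated by their libraries.

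**Figure D1:**
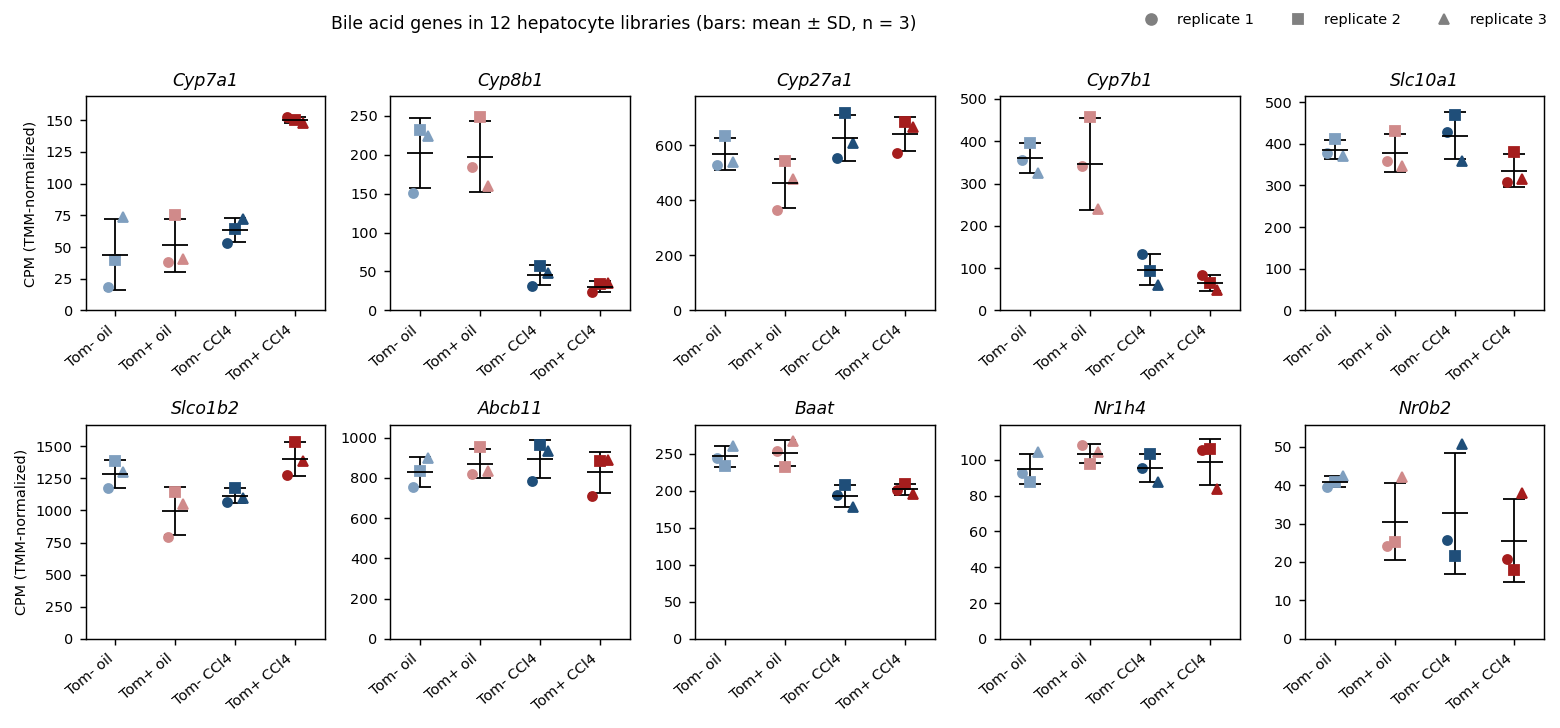
Level of each of the 10 genes in CPM (TMM-normalized, linear axis from 0) in the 12 libraries, with 1 symbol for each replicate number and bars for the mean ± SD (n = 3). The libraries of Cyp8b1 and Cyp7b1 in CCl4 lie below all oil libraries, whereas the 3 Tom+ CCl4 libraries of Cyp7a1 lie above all others.

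The first comparison asked how CCl4 changed these genes within each fraction. A gene was called when edgeR's Benjamini-Hochberg adjusted p over all tested genes was under 0.05 and the log2 fold change was beyond 0.75 in either direction. In both fractions the same 2 enzymes fell, Cyp8b1 and Cyp7b1, and 0 of the 10 genes rose. Over all genes tested, 7.92% were called in Tom- (6.33% higher, 1.59% lower) and 5.24% in Tom+ (2.9% higher, 2.34% lower). The remaining 8 genes were not called in either fraction, although Cyp7a1 was close to the threshold in Tom+ and was called by several other settings.

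Cyp8b1, the sterol 12-alpha-hydroxylase, was at 151, 231 and 224 CPM in Tom- oil and at 185, 248 and 160 CPM in Tom+ oil. It was at 31.7, 56.9 and 47.7 CPM in Tom- CCl4 and at 23.2, 33.7 and 35.2 CPM in Tom+ CCl4. All 6 CCl4 libraries lay below all 6 oil libraries. The fall was 4.45-fold in Tom- (log2 -2.15, SE 0.27, adjusted p = 8.4e-04) and 6.45-fold in Tom+ (log2 -2.69, SE 0.27, adjusted p = 2.5e-04). Without the 2 doubted oil libraries it was -2.32 (adjusted p = 0.00101) and -2.49 (adjusted p = 7.1e-04).

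Cyp7b1, which hydroxylates oxysterols in the alternative route, was at 356, 396 and 326 CPM in Tom- oil and at 340, 457 and 240 CPM in Tom+ oil. In CCl4 it was at 134, 94.2 and 60.4 CPM in Tom- and at 83.7, 64.0 and 47.4 CPM in Tom+. Here too no CCl4 library reached the lowest oil library, and replicate 1 was the highest of both CCl4 groups. The fall was 3.74-fold in Tom- (log2 -1.90, SE 0.32, adjusted p = 0.00464) and 5.31-fold in Tom+ (log2 -2.41, SE 0.33, adjusted p = 0.00204). Without the 2 doubted libraries the log2 values were -1.90 (adjusted p = 0.0170) and -2.15 (adjusted p = 0.0131). An annotated snRNA lies within Cyp7b1 on the same strand, and all Cyp7b1 counts were whole numbers.

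The initiating enzymes of both routes did not follow these 2 genes. Cyp7a1 was at 18.5, 39.5 and 73.7 CPM in Tom- oil, 38.0, 75.4 and 40.6 CPM in Tom+ oil and 53.0, 64.4 and 71.8 CPM in Tom- CCl4. In Tom+ CCl4 it was at 152, 150 and 148 CPM. The oil libraries spread over a wide range, and the 3 Tom+ CCl4 libraries were close together and above all 9 other libraries.

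For Cyp7a1 the difference of CCl4 against oil was 0.52 on the log2 scale in Tom- (SE 0.44, 95% interval -0.47 to 1.51, adjusted p = 0.456). In Tom+ it was 1.55 (SE 0.44, interval 0.54 to 2.55, adjusted p = 0.0623), which did not pass. With the doubted oil libraries left out, Cyp7a1 was called higher in Tom+ (log2 1.94, adjusted p = 0.00186), and the value in Tom- was 0.16 (adjusted p = 0.694). It was also called in Tom+ by DESeq2 (1.55, adjusted p = 0.00861), by limma-voom (1.62, adjusted p = 0.0141) and, in edgeR, on total counts (1.64, adjusted p = 0.0460) or with the 6 Tom+ libraries alone (1.54, adjusted p = 0.0218). Single libraries outside this comparison decided the call through the shared spread: Cyp7a1 passed without Tom- oil replicate 1 (1.55, adjusted p = 0.0154) or without Tom- oil replicate 3 (1.55, adjusted p = 0.0208). Of 25 alternatives for Tom+, averages over both fractions included, 10 called Cyp7a1 and 15 did not, RLE and upper-quartile factors among the latter. Its adjusted p in Tom+ ranged from 0.00186 to 0.195 over all alternatives. The value in Tom- moved to 0.15 without Tom- oil replicate 1 and to 1.12 without Tom- oil replicate 3. The counts of Cyp7a1 were not whole in 5 libraries.

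Cyp27a1 was at 529, 634 and 540 CPM in Tom- oil and at 365, 542 and 477 CPM in Tom+ oil. It was at 555, 716 and 608 CPM in Tom- CCl4 and at 571, 685 and 668 CPM in Tom+ CCl4. The fractions overlapped in CCl4, and in Tom+ the lowest CCl4 library was above the highest oil library. Its log2 differences were 0.14 in Tom- (SE 0.14, adjusted p = 0.534) and 0.48 in Tom+ (SE 0.14, adjusted p = 0.0556). With the doubted oil libraries left out they were 0.097 (adjusted p = 0.730) and 0.61 (adjusted p = 0.0412), still under the fold threshold.

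Baat, the conjugating enzyme, was at 245, 234 and 261 CPM in Tom- oil and at 254, 232 and 267 CPM in Tom+ oil. It was at 194, 208 and 178 CPM in Tom- CCl4 and at 201, 209 and 196 CPM in Tom+ CCl4. All CCl4 libraries were lower than every oil library of their fraction, by a small step. The log2 differences of -0.35 (SE 0.089, adjusted p = 0.0174) and -0.31 (SE 0.088, adjusted p = 0.0397) passed the adjusted p but not the fold threshold. With the adjusted p alone, 3 of the 10 genes passed in Tom- and 4 in Tom+, beside 16.1% and 9.47% of all genes. In Tom+ the adjusted p was 0.0559 without the doubted oil libraries and ranged from 0.00248 to 0.147 over the alternatives. The lower end of this range is the edgeR average over both fractions and not a value of Tom+ alone.

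The sodium-dependent uptake carrier Slc10a1 was at 377, 411 and 370 CPM in Tom- oil, 358, 430 and 347 CPM in Tom+ oil, 429, 470 and 359 CPM in Tom- CCl4 and 309, 381 and 315 CPM in Tom+ CCl4. The groups overlapped in both fractions. Its log2 difference of CCl4 against oil was 0.12 in Tom- (95% interval -0.14 to 0.38) and -0.18 in Tom+ (interval -0.44 to 0.088), so that both intervals lay within the fold threshold. Without the doubted oil libraries the value in Tom+ was -0.067. The counts of Slc10a1 were not whole in 10 of 12 libraries, and where the decimals come from was not tested.

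Slco1b2, the sodium-independent uptake carrier, was at 1171, 1388 and 1297 CPM in Tom- oil and at 790, 1147 and 1051 CPM in Tom+ oil. In CCl4 it was at 1068, 1177 and 1100 CPM in Tom- and at 1277, 1536 and 1388 CPM in Tom+. The CCl4 libraries overlapped with oil in Tom- and were all above oil in Tom+. The log2 difference was -0.21 in Tom- (SE 0.13, adjusted p = 0.306) and 0.49 in Tom+ (SE 0.13, adjusted p = 0.0313), the latter under the fold threshold. Without the doubted oil libraries these were -0.26 (adjusted p = 0.237) and 0.61 (adjusted p = 0.0254). In Tom+ the adjusted p ranged from 0.00306 to 0.320 over the alternatives, where the upper end is the limma-voom average over both fractions. The edgeR average over both fractions was 0.14 (adjusted p = 0.290).

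The export pump Abcb11 ranged from 754 to 952 CPM over the 6 oil libraries and from 710 to 962 CPM over the 6 CCl4 libraries. Its log2 difference was 0.11 in Tom- (95% interval -0.15 to 0.36) and -0.073 in Tom+ (interval -0.33 to 0.18). An annotated antisense gene, Gm13613, and a pseudogene overlap Abcb11 on the opposite strand, and the counts were not whole in 6 libraries. The libraries were made as strand-specific, but the strand setting of the counting is not given in the sources used here, so reads of Abcb11 and of Gm13613 may not be separated.

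The receptor gene Nr1h4 varied least of the 10 by the ratio of its highest to its lowest library, at 83.8 to 108 CPM over all 12 libraries. Its log2 difference of CCl4 against oil was 0.0053 in Tom- (95% interval -0.22 to 0.23) and -0.069 in Tom+ (interval -0.30 to 0.16). Nr0b2, the corepressor SHP, was at 39.5, 40.9 and 42.3 CPM in Tom- oil, 24.2, 25.2 and 42.0 CPM in Tom+ oil, 25.7, 21.6 and 50.8 CPM in Tom- CCl4 and 20.8, 17.9 and 38.0 CPM in Tom+ CCl4. Replicate 3 was the highest library of all 4 groups, and the groups overlapped. The log2 differences of Nr0b2 were -0.32 in Tom- (95% interval -1.17 to 0.53) and -0.25 in Tom+ (interval -1.10 to 0.60), which leave room for changes beyond the fold threshold. With the replicate number as a block in edgeR they were -0.44 (SE 0.18, adjusted p = 0.108) and -0.28 (SE 0.18, adjusted p = 0.355).

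**Figure D2:**
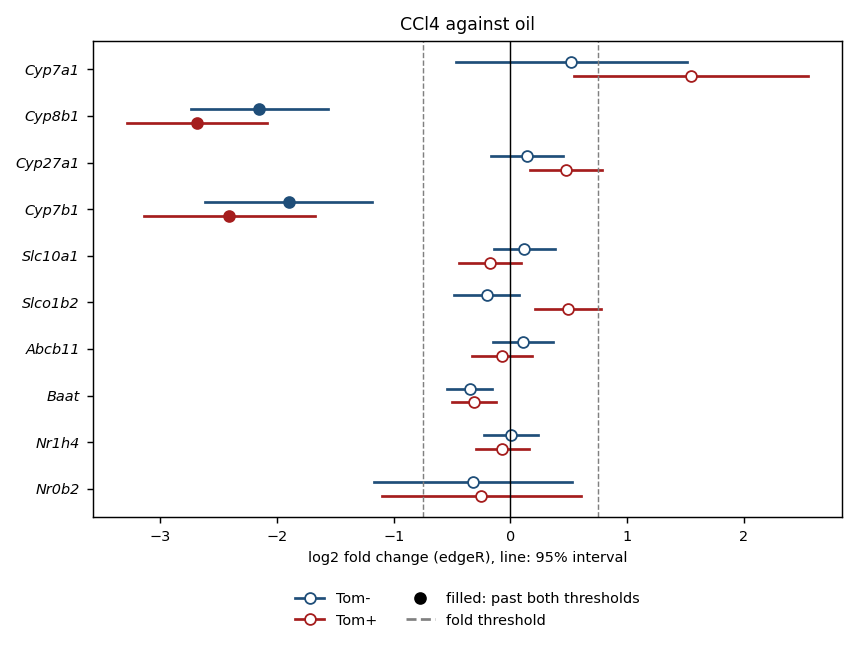
Log2 fold change of CCl4 against oil for the 10 genes in Tom- (blue) and Tom+ (red) with 95% intervals from edgeR, where filled points passed the adjusted p and the fold threshold (dashed lines at 0.75 in either direction). Cyp8b1 and Cyp7b1 are filled on the left in both fractions, and the interval of Cyp7a1 in Tom+ spans 0.54 to 2.55 without passing.

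In Tom- the CCl4 libraries lay apart from oil for 3 of the 10 genes, all lower, against 36% of all genes tested (19.3% higher, 16.8% lower). In Tom+ they lay apart for 6 of the 10, with Cyp7a1, Cyp27a1 and Slco1b2 higher and Cyp8b1, Cyp7b1 and Baat lower, against 29.3% of all genes (14.6% in each direction). The median log2 difference over the 10 genes was -0.10 in Tom- and -0.12 in Tom+, beside medians of 0.0046 and 0.0020 over all genes. When CCl4 was set against oil as the mean of both fraction values in the same fit, 8.43% of all genes were called by edgeR. This average took same-numbered Tom+ and Tom- libraries as independent although they varied together, so its SE may be too small. On that average Cyp8b1 was lower by log2 -2.42 (SE 0.19, adjusted p = 1.9e-05) and Cyp7b1 by -2.15 (SE 0.23, adjusted p = 2.0e-04), and Cyp7a1 was called higher (1.03, SE 0.31, adjusted p = 0.0431). Baat (-0.33, adjusted p = 0.00248) and Cyp27a1 (0.31, adjusted p = 0.0447) again stayed under the fold threshold. With same-numbered libraries as a random block in limma-voom, Cyp7a1 was at 1.16 (adjusted p = 0.0218) and Cyp27a1 at 0.31 (adjusted p = 0.0657).

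The second comparison asked how the sorted fractions differed within a treatment. None of the 10 genes was called between Tom+ and Tom- in CCl4, where 1.96% of all genes were called, or in oil, where 0 of 17121 genes were called by edgeR (0%). In oil, 1198 genes (7%) had an unadjusted p under 0.05, and DESeq2 called 17. Same-numbered Tom+ and Tom- libraries varied together, and with that number as a block 682 genes (3.98%) were called in CCl4 and 40 (0.234%) in oil, again with none of the 10 among them. The fractions did not overlap for 2 of the 10 genes in CCl4, Cyp7a1 and Slco1b2, and for 1 in oil, Slco1b2, against 28.7% and 11.7% of all genes. The Tom+ CCl4 libraries enter this comparison as well as that of CCl4 against oil in Tom+, so the values of a gene in both are not independent.

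Cyp7a1 had the largest difference of the 10 in CCl4, with all 3 Tom+ libraries (148 to 152 CPM) above all 3 Tom- libraries (53.0 to 71.8 CPM). The log2 difference was 1.25 (SE 0.44, 95% interval 0.25 to 2.25, adjusted p = 0.135), and it was higher in 3 of 3 same-numbered pairs. It was called with the 6 CCl4 libraries alone (1.24, adjusted p = 0.0104) and without Tom- oil replicate 1 (1.26, adjusted p = 0.0453), with a range of the adjusted p from 0.0104 to 0.299 over the alternatives. In oil Cyp7a1 was at 0.22 (SE 0.44, adjusted p = 0.941), and at -0.54 (adjusted p = 0.762) without the doubted libraries. The difference between the CCl4 and oil values was 1.03 (SE 0.62, adjusted p = 0.416). That difference was called without the doubted libraries (1.78, adjusted p = 0.0335), and its adjusted p ranged from 0.0335 to 0.665 over the alternatives.

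Cyp8b1 and Cyp7b1, which fell in CCl4 in both fractions, were lower in Tom+ than in Tom- CCl4 in all 3 pairs. The log2 difference was -0.57 for Cyp8b1 (SE 0.26, adjusted p = 0.220) and -0.56 for Cyp7b1 (SE 0.31, adjusted p = 0.327). With the pairs as a block these were -0.55 (adjusted p = 0.0212) and -0.53 (adjusted p = 0.00466), past the adjusted p and under the fold threshold. In oil the differences were -0.033 (95% interval -0.59 to 0.53) and -0.056 (interval -0.75 to 0.64). Without the doubted oil libraries they were -0.42 (adjusted p = 0.889) and -0.33 (adjusted p = 0.974). The difference between the CCl4 and oil values was -0.54 for Cyp8b1 (SE 0.36, adjusted p = 0.462) and -0.51 for Cyp7b1 (SE 0.44, adjusted p = 0.587), so a larger fall in Tom+ than in Tom- was not shown. Without the doubted libraries these were -0.16 and -0.25 (adjusted p = 0.886 for both).

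The uptake carriers differed in direction in CCl4. Slco1b2 was higher in Tom+ in 3 of 3 pairs (log2 0.33, SE 0.13, adjusted p = 0.155, with the block adjusted p = 0.00793), and Slc10a1 was lower in 3 of 3 pairs (-0.32, SE 0.12, adjusted p = 0.136, with the block adjusted p = 0.00794). In oil Slco1b2 was instead lower in Tom+ in all 3 pairs (-0.37, SE 0.13, adjusted p = 0.601, with the block adjusted p = 0.0323), and Slc10a1 was at -0.029. Of these oil pairs only that numbered 3 differed in reporter as labelled. Block values of oil and of the interaction rest on all 3 pairs. Without the doubted libraries Slco1b2 was at -0.56 in oil (adjusted p = 0.578) and Slc10a1 at -0.16 (adjusted p = 0.940). The change of Slco1b2 from oil to CCl4 was tested as an interaction, where 1.17% of all genes were called (5.48% with the block). It was 0.70 (SE 0.19, 95% interval 0.30 to 1.09, adjusted p = 0.0731, with the block 0.71 and adjusted p = 8.4e-04), under the fold threshold. It passed both thresholds on total counts alone (0.84, adjusted p = 0.0264), a scaling that shifts the median gene by 0.14, and stood at 0.88 (adjusted p = 0.0589) without the doubted libraries. Beside these values, all 10 marker genes of pericentral hepatocytes had a higher estimate in Tom+ than in Tom- in CCl4 (median log2 1.17) and a lower one in oil (median -0.98). Without the block 0 of 10 were called in either treatment, and with it 8 were called higher in CCl4 and 4 lower in oil, where the median was -1.97 without the doubted libraries.

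Abcb11, Baat and Nr1h4 differed little between fractions. Their log2 differences lay between -0.11 and 0.063 in CCl4 and between 0.026 and 0.12 in oil, with intervals inside the fold threshold. Cyp27a1 was at 0.034 in CCl4 and at -0.30 in oil (SE 0.14, adjusted p = 0.723), where it was lower in Tom+ in all 3 pairs, and at -0.49 in oil without the doubted libraries (adjusted p = 0.607). Nr0b2 was lower in Tom+ in all 3 pairs of both treatments, at -0.36 in CCl4 (SE 0.38, adjusted p = 0.632) and -0.43 in oil (SE 0.38, adjusted p = 0.863), with block values of adjusted p = 0.0672 and 0.0848.

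**Figure D3:**
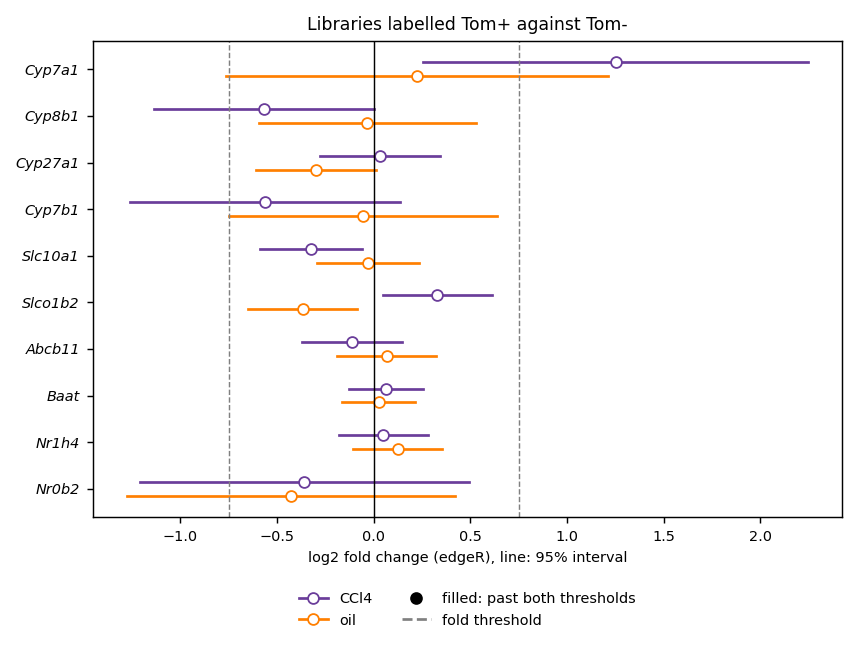
Log2 fold change of Tom+ against Tom- libraries for the 10 genes in CCl4 (purple) and oil (orange) with 95% intervals from edgeR and the fold threshold as dashed lines. No point is filled, since none passed both thresholds, and the intervals of Slco1b2 lie on opposite sides of 0.

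**Figure D4:**
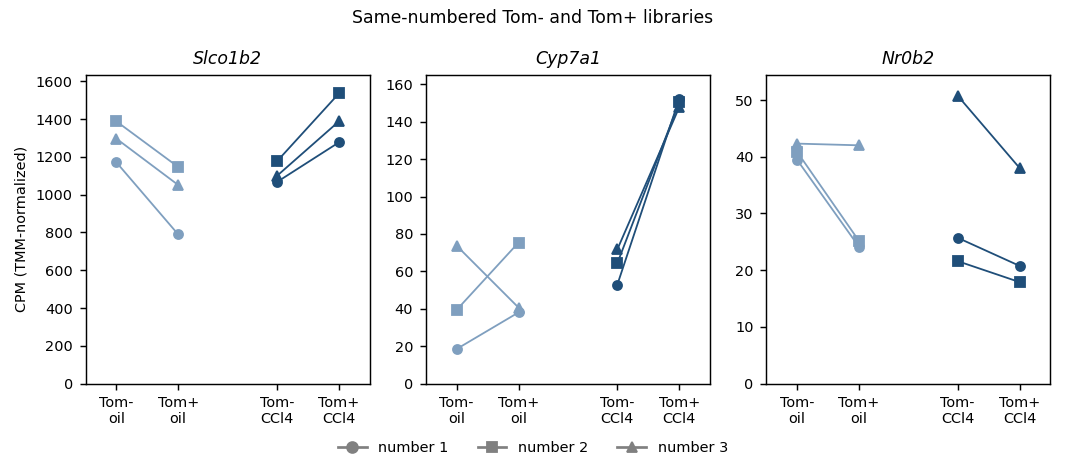
CPM (TMM-normalized, linear axis from 0) of Slco1b2, Cyp7a1 and Nr0b2 in same-numbered Tom- and Tom+ libraries, joined by a line for each number in oil (light) and CCl4 (dark). All 3 lines of Slco1b2 go down in oil and up in CCl4, those of Cyp7a1 go up in CCl4, and those of Nr0b2 go down in both.

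Zone and cell type markers moved along with these groups. Cyp7a1 and Cyp27a1 are known to be more abundant in pericentral hepatocytes of mouse liver. No zone is given here for the other genes, Cyp8b1 and Cyp7b1 among them. From oil to CCl4, 6 of 10 pericentral (zone 3) markers rose and 8 of 10 periportal (zone 1) markers fell in Tom+, whereas in Tom- 0 of 10 zone 3 markers rose, 1 fell, and 0 of 10 zone 1 markers were called. Without the doubted oil libraries, 8 zone 3 markers rose and 10 zone 1 markers fell in Tom+, and 2 zone 3 markers fell in Tom-. Between Tom+ and Tom- in CCl4, 5 of 10 zone 1 markers were called lower and 0 of 10 zone 3 markers were called (8 higher with the block). The summed zone 3 level was 3616 to 5004 CPM in Tom+ CCl4, 1573 to 2679 CPM in Tom- CCl4, 797 to 2635 CPM in Tom+ oil and 2012 to 5315 CPM in Tom- oil. The part of zonation in the values of the 10 genes was not tested. In bulk libraries, fewer cells of a kind and less RNA of a gene in each cell cannot be told apart.

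Of the tested stellate cell markers, 6 of 7 rose in Tom- and 5 of 7 in Tom+ from oil to CCl4, with summed levels of 62.7 to 79.7 CPM in Tom- CCl4 and 47.3 to 93.7 CPM in Tom+ CCl4 against 6.90 to 21.3 CPM in oil. Endothelial markers rose in Tom- (7 of 7; 255 to 277 CPM in CCl4, 101 to 155 CPM in oil) and 0 of 7 were called in Tom+, where they were at 132 to 179 CPM in CCl4 and 113 to 188 CPM in oil. In Tom- 6 of 7 rose without the doubted oil libraries. Between Tom+ and Tom- in CCl4, 5 of 7 endothelial markers were called lower (6 with the block, median log2 -0.83), and the libraries did not overlap for any of the 7. Of 8 macrophage markers 0 were called in either fraction without a block, although all 8 estimates were above 0 in both. With the replicate number as a block 7 were called higher in Tom- and 1 in Tom+. Replicate 3 had the highest sum of these markers in all 4 groups. In Tom- they summed to 80.9 to 103 CPM in CCl4 and 13.4 to 70.7 CPM in oil, without overlap (median log2 1.43), and in Tom+ to 43.9 to 114 CPM and 20.3 to 99.0 CPM (median 0.61). Of the 7 cholangiocyte markers 3 could be tested, of which 1 rose in Tom+ (0 without the doubted libraries). With the block 0 rose in Tom+ and 1 in Tom-. The defining Krt19, Krt7, Epcam and Cftr were at 0 in 8, 7, 7 and 10 of 12 libraries. Of 6 lymphocyte markers 1 could be tested and was not called, except with the block in Tom-, where it was higher. Cyp7a1 transcript also follows the daily cycle in rodent liver. Of 14 clock genes, 0 were called from oil to CCl4 in either fraction, with Per2 in Tom+ just under the fold threshold (-0.75, adjusted p = 0.0310). In Tom- 1 of the 14 passed the adjusted p (0.0142) under the fold threshold, and the highest estimate was 0.72 for Npas2. Per2 was lower in Tom+ than in Tom- CCl4 (log2 -0.76, adjusted p = 0.0423). The part of these differences in the values of the 10 genes was not tested.

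The other genes of the pathway showed where the changes of the 10 genes stood among their neighbours. Of 12 tested synthesis genes, 1 rose and 0 fell in Tom-, and 1 rose and 1 fell in Tom+. Cyp39a1, a 7-alpha-hydroxylase of 24-hydroxycholesterol, rose from 7.52 to 11.0 CPM in Tom- oil to 56.7 to 77.9 CPM in Tom- CCl4 (log2 2.98, SE 0.23, adjusted p = 2.3e-05). In Tom+ it rose from 12.8 to 16.6 CPM to 43.2 to 78.9 CPM (log2 2.11, SE 0.22, adjusted p = 2.0e-04), so that this hydroxylase and Cyp7b1 moved in opposite directions. Acox2, a peroxisomal oxidase of the bile acid side chain, fell in Tom+ (log2 -0.89, adjusted p = 0.00212) and was at -0.70 in Tom- (adjusted p = 0.00608), under the fold threshold.

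Of 14 tested transport genes, 0 rose and 1 fell in Tom-, and 2 rose and 3 fell in Tom+. Slco1a1, an organic anion uptake carrier, fell from 77.7 to 149 CPM to 7.69 to 17.3 CPM in Tom- (log2 -3.10, adjusted p = 0.00252) and from 74.4 to 116 CPM to 8.51 to 19.8 CPM in Tom+ (log2 -2.63, adjusted p = 0.00610). Slc10a1 and Slco1b2, the main bile acid uptake carriers, thus showed no call where Slco1a1 was several-fold lower. In Tom+ the related carrier Slco1a4 fell (log2 -1.03, adjusted p = 0.0390), as did Slc51b, a subunit of the basolateral exporter (-1.99, adjusted p = 0.0310), whose level was at most 0.896 CPM in any library. Slco1a4 (-1.02, adjusted p = 0.131) and Slc51b (-2.01, adjusted p = 0.0795) were not called without the doubted oil libraries. The exporters Abcc4 (basolateral) and Abcc2 (canalicular) rose in Tom+ (log2 2.95, adjusted p = 0.00591, and 0.79, adjusted p = 0.0112). In Tom- Abcc4 was at 1.40 (adjusted p = 0.0695) and Abcc2 at 0.25 (adjusted p = 0.327).

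Of 12 tested regulators, 0 were called in Tom- and 0 in Tom+. Without the doubted oil libraries Ppara, a nuclear receptor of fatty acid metabolism, was called lower in Tom- (log2 -0.76, adjusted p = 0.0193). Fgf15, Gpbar1 and Vdr, which were too low to test, had at most 18 counts in any library. Between Tom+ and Tom- in CCl4, Ppara was the 1 regulator called, higher in Tom+ in 3 of 3 pairs (log2 0.80, adjusted p = 0.0133), while 0 of 12 synthesis and 0 of 14 transport genes were called. With the block the cholesterol 24-hydroxylase Cyp46a1 was called lower there (-1.66, adjusted p = 0.00152) and Abcc4 higher (0.96, adjusted p = 4.4e-04). For the interaction, Akr1c6 among the synthesis genes was called higher and the efflux pump Abcb1a among the transporters was called lower, with no regulator called. Abcb1a was not called without the doubted oil libraries (-0.83, adjusted p = 0.0921). With the block, Abcc4 (1.47, adjusted p = 7.1e-04) and the regulators Ppara (0.81, adjusted p = 3.5e-04) and Nr1i3 (0.82, adjusted p = 0.00473) were also called higher, and Cyp39a1 (-0.90, adjusted p = 0.0180) and Cyp46a1 (-1.27, adjusted p = 0.0465) lower.

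**Figure D5:**
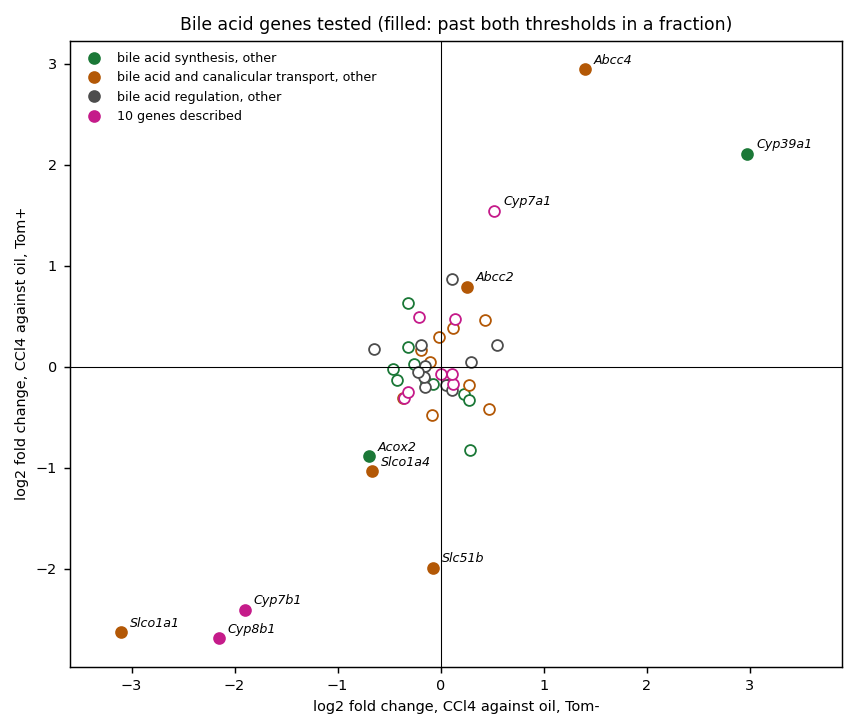
Log2 fold change of CCl4 against oil in Tom- (horizontal) and Tom+ (vertical) for the 10 genes and the tested genes of the 3 wider bile acid lists, 1 point for each gene, filled where it passed both thresholds in at least 1 fraction. Cyp8b1, Cyp7b1 and Slco1a1 lie at the lower left, Cyp39a1 and Abcc4 at the upper right, and Cyp7a1 is named although it did not pass.

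Within the 10 genes, Cyp8b1 and Cyp7b1 varied most alike over the 12 libraries (Pearson r of log2 CPM 0.91), followed by Cyp8b1 with Baat (0.84), Cyp7b1 with Baat (0.82) and Cyp27a1 with Slco1b2 (0.82). Cyp7a1 ran against Cyp7b1 (-0.70) and Cyp8b1 (-0.64). Among 13061 genes with a mean of at least 1 CPM, the closest to Cyp8b1 was Ildr2 (0.97) and to Cyp7b1 Pcsk6 (0.98). The closest to Cyp7a1 was Lacc1 (0.94), to Cyp27a1 Slc2a2 (0.98), to Slco1b2 Aqp9 (0.97), to Baat Maob (0.97), to Slc10a1 Tmem260 (0.94) and to Nr0b2 Orm2 (0.96). For Abcb11 it was Gm13613 (0.96), the antisense gene that overlaps it, and for Nr1h4 it was Gm8883 (0.90). These values describe libraries that share the 4 groups and, in same-numbered pairs, further variation.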

How the data were processed

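Live cells were split by tdTomato signal in a sorter, and strand-specific libraries were made from their polyA RNA. Reads were checked with fastp (v0.23.2) and aligned to mm10 with HISAT2 (v2.1.0), per the submitters' processing notes. The counting program and annotation release are not given in the sources used here. The authors deposited expected counts per feature, not normalized. Since 30.4% to 32.9% of the values above 0 in each library had decimals, they were rounded before any test, although whole counts had been assumed in the design. Symbols were matched for 54723 of 54839 features (99.8%). The precision at these depths is set by the spread between libraries.

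Tests were run with edgeR (v4.0.16) under R v4.3.3, using filterByExpr, TMM factors and the robust quasi-likelihood test in one fit of 12 libraries with a coefficient for each of the 4 groups, Benjamini-Hochberg adjusted over 17121 genes. TPM was computed from rounded counts and the deposited lengths. DESeq2 (v1.42.0), limma-voom (limma v3.58.1), RLE and upper-quartile factors, total counts, other filters, the adjusted p alone, the contrast's libraries alone, a replicate block and leaving out libraries were alternatives. Counts of the wider lists without the doubted oil libraries were added after seeing the data. The tests were run on simulated counts drawn independently for each library. This check does not cover the shared variation of same-numbered libraries. Figures were drawn with matplotlib (v3.10.9).

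The pairing comes from the replicate numbers in the labels. Deviations from the group means of same-numbered Tom+ and Tom- libraries correlated at r = 0.543 to 0.725 in CCl4 and 0.353 to 0.574 in oil over 7763 genes. The wider lists are named by genes past both thresholds, the zone, clock and cell type lists by counts, and likeness by the highest r. A gene of the regulator list is not reported here and is left out of its counts. The 10 genes and all lists were chosen with earlier results of these data known.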

Additional observations from a re-analysis of the deposited data

Results flagged for a closer look

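Slco1b2 was higher in Tom+ than in Tom- in 3 of 3 same-numbered pairs in CCl4 and in 0 of 3 in oil, and the difference between both values was 0.70 on the log2 scale (edgeR adjusted p = 0.0731, with the replicate block adjusted p = 8.4e-04). The same opposite directions in every pair were seen in 5 genes of the wider bile acid lists. Only genes of these lists called in at least 1 comparison were looked at, the interaction included. The share of all genes with this pattern was not counted, so the number is no result about bile acid genes. In oil only the pair numbered 3 differed in reporter as labelled. Akr1c6 differed by 0.95 (adjusted p = 0.0104), Slco1a1 by 0.47 (adjusted p = 0.713), Abcc2 by 0.54 (adjusted p = 0.252), Abcc4 by 1.55 (adjusted p = 0.249) and Slc51b, which was lower in Tom+ in CCl4, by -1.92 (adjusted p = 0.183). Abcb1a was lower in Tom+ in 3 of 3 pairs in CCl4 and higher in 2 of 3 in oil, and differed by -0.89 (adjusted p = 0.0323). With the replicate block the adjusted p was 7.3e-05 for Akr1c6, 0.0192 for Slco1a1, 0.00185 for Abcc2, 7.1e-04 for Abcc4, 0.0723 for Slc51b and 0.00210 for Abcb1a. Without the 2 oil libraries whose reporter went against their label, the value was 0.88 for Slco1b2 (adjusted p = 0.0589), 0.91 for Akr1c6 (adjusted p = 0.0333), 0.53 for Slco1a1, 0.75 for Abcc2, 2.24 for Abcc4, -2.26 for Slc51b and -0.83 for Abcb1a (adjusted p = 0.0921).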

How the results depend on the processing

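The calls of Cyp8b1 and Cyp7b1 in both fractions kept their direction and passed in 100 of 100 values under the alternatives, averages over fractions included. In these and the following numbers, the adjusted p alone only drops the fold threshold and so could not undo a call. Each average is counted under both fractions. Of 570 values of the 10 genes under alternatives other than leaving out 1 library, 535 kept their side and direction, 16 came to pass, and 19 turned sign, none of them past the thresholds. The cause was not tested.

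Leaving out the 2 doubted oil libraries turned Nr1h4 in Tom- (-0.0064) and Abcb11 in Tom+ (0.0045) for CCl4 against oil, Cyp7a1 (-0.54) and Abcb11 (-0.082) for Tom+ against Tom- in oil, and Baat (-0.0087) and Nr0b2 (-0.019) for the interaction. Total counts alone turned Nr1h4 in Tom- (-0.047) and Tom+ (0.022), Abcb11 in Tom+ (0.016), Abcb11 for Tom+ against Tom- in CCl4 (0.033) and Nr1h4 for the interaction (0.069). The average over both fractions had the other sign than Tom- for Slc10a1 (-0.028 in edgeR, -0.031 in limma-voom), Slco1b2 (0.14 and 0.15) and Nr1h4 (-0.032 and -0.035), and than Tom+ for Abcb11 (0.017 and 0.016).

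Over all genes, DESeq2 called 538 genes between fractions in CCl4 (336 in edgeR), 17 in oil (0) and 583 for the interaction (201). The adjusted p alone gave 2761 genes for CCl4 against oil in Tom- (1356 with the fold threshold), 1622 in Tom+ (897) and 992 between fractions in CCl4. On total counts the share of higher genes among those called was 40.6% between fractions in CCl4 (11.3% with TMM), 50.4% for the interaction (18.4%) and 65.7% for CCl4 against oil in Tom+ (55.4%), with the median gene shifted by 0.15 between fractions in CCl4 and 0.14 for the interaction. Without both doubted libraries, 957, 614, 0 and 149 genes were called for CCl4 against oil in Tom- and Tom+, the fractions in oil and the interaction.

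The replicate block gave 682 genes between fractions in CCl4, 40 in oil and 938 for the interaction, and changed no call of the 10 genes between fractions. For CCl4 against oil the numbers did not pair all libraries over 7763 genes (r from -0.0010 to 0.13 in Tom- and 0.016 to 0.30 in Tom+). There the block called 1694 and 1119 genes, Cyp7a1 in Tom+ among them (1.60, adjusted p = 0.0498).

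Leaving out 1 library at a time gave 902 to 1404 genes for CCl4 against oil in Tom-, 482 to 933 in Tom+, 77 to 352 between fractions in CCl4, 0 to 26 in oil and 42 to 253 for the interaction. The count moved by over 1.5 times without Tom- CCl4 replicate 3 (902) in the first, and without Tom+ oil replicate 1 (522) or Tom+ CCl4 replicate 3 (482) in the second. Between fractions in CCl4 this held without Tom- CCl4 replicate 2 (77) and Tom+ CCl4 replicates 1, 2 and 3 (178, 92 and 216), and in oil without Tom- oil replicate 3 (26) and Tom+ oil replicate 3 (25). For the interaction it held without Tom- oil replicates 1 and 2 (111 and 70), Tom+ oil replicate 1 (58), Tom- CCl4 replicate 2 (44) and Tom+ CCl4 replicates 1, 2 and 3 (125, 42 and 92). Log2 values that turned sign ranged, for CCl4 against oil, from -0.056 to 0.077 (Nr1h4 in Tom-), -0.13 to 0.036 (Nr1h4 in Tom+), -0.13 to 0.021 (Abcb11 in Tom+) and -0.65 to 0.050 (Nr0b2 in Tom+). Between fractions in CCl4 they ranged from -0.044 to 0.14 (Cyp27a1), -0.0088 to 0.16 (Nr1h4) and -0.76 to 0.11 (Nr0b2). In oil they ranged from -0.16 to 0.82 (Cyp7a1), -0.23 to 0.099 (Cyp8b1), -0.31 to 0.15 (Cyp7b1), -0.13 to 0.030 (Slc10a1), -0.0036 to 0.13 (Abcb11) and -0.020 to 0.078 (Baat). For the interaction they ranged from -0.15 to 0.032 (Nr1h4), -0.019 to 0.092 (Baat) and -0.33 to 0.54 (Nr0b2).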
